A study of Mus musculus with 6 samples.

Results

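Expression of 7 adrenergic receptor genes was examined in lung tissue after hemorrhagic shock (HS) in mice with an impaired glucocorticoid receptor (GR). The genes were *Adrb1*, which encodes the β1 receptor, *Adra1a*, *Adra1b* and *Adra1d* (α1 receptors) and *Adra2a*, *Adra2b* and *Adra2c* (α2 receptors). They were taken by their symbols and made up 7 of the 54532 genes with deposited read counts. Both genotypes were of 129/SvEv x C57BL/6 background. In GRdim/dim mice every cell carries a mutated GR, in which a single amino acid exchange in the part that binds DNA impairs dimerization, and GR+/+ littermates (wild type) served as controls. All mice were between 10 and 16 weeks old, were ventilated under ketamine, midazolam and fentanyl anesthesia after sevoflurane induction, and were bled to a mean arterial pressure of 35 mmHg for 1 h. The shed blood was then given back, and the mice were resuscitated for 4 h with colloids and with norepinephrine at rates set to hold the pressure above 55 mmHg. Lungs of 3 GR+/+ mice (2 female, 1 male) and 3 GRdim/dim mice (1 female, 2 male) gave 1 library each, and mice without shock were not analysed here.

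Adrenergic receptors are G protein-coupled receptors for the catecholamines norepinephrine and epinephrine. The β1 receptor couples to the stimulatory G protein Gs and raises cyclic AMP (cAMP), α1 receptors couple to Gq and phospholipase C and raise intracellular calcium, and α2 receptors couple to Gi and lower cAMP. In the lung, α1 receptors contract vascular smooth muscle, and β receptors relax airways and promote the clearance of alveolar fluid. Norepinephrine, an agonist of these receptors, was thus part of the resuscitation in both genotypes, and the amount given to each mouse is not stated in the sources used here.

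Total counts were 16361747 to 32082940 in GR+/+ and 15687734 to 24444604 in GRdim/dim libraries, with the highest in GR+/+ replicate 3. The mutated gene itself, *Nr3c1*, had 138, 145 and 162 CPM (read counts scaled to a common library size) in GR+/+ and 159, 150 and 120 CPM in GRdim/dim lungs, a level that does not show a point mutation. Alveolar type 2 cell markers, which define lung tissue, were abundant, with a mean *Sftpc* level of 11400 CPM in GR+/+ and 12800 CPM in GRdim/dim lungs. GR+/+ replicate 3 stood apart from the other 5 libraries. It had the lowest summed level of smooth muscle markers (256 CPM, against 483 to 652 CPM in the others), of pericyte markers (225 against 396 to 551 CPM) and of heart muscle markers (172 against 439 to 1003 CPM), and the highest of alveolar type 1 markers (5508 against 3540 to 4770 CPM). Receptor results that rest on this library are therefore given with and without it.

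None of the receptor genes was differentially expressed between genotypes. Genes were called differentially expressed (DEGs) when edgeR's quasi-likelihood test gave an adjusted *p* under 0.05 and the log2 fold change exceeded 0.5 in size. Of the 16568 genes with enough reads to be tested, 0.169% were DEGs, 0.0724% being higher and 0.0966% lower in GRdim/dim lungs. Of the 7 receptor genes, *Adrb1*, *Adra1a*, *Adra1b*, *Adra1d* and *Adra2a* passed the filter on low counts. Of these 5, 0 were DEGs with edgeR, 0 had an unadjusted *p*-value under 0.05 (9.6% of all genes tested had one), and 0 were DEGs with DESeq2 (1.71% of genes with an adjusted *p*-value). The libraries of the genotypes overlapped for all 7 genes, including the untested *Adra2b* and *Adra2c*. They did not overlap in 14.8% of the genes tested (7.77% higher and 7.05% lower in GRdim/dim lungs). So few receptor genes cannot be told apart from these shares. The median log2 fold change of the 5 tested receptor genes was -0.47, with 1 above and 4 below 0, and that of all genes tested was 0.01. In lung tissue, fewer cells of a type and less RNA per cell cannot be told apart.

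Windows of 250 bases before the start site, from RefSeq on GRCm38.p6, are shown for *Adrb1*, the gene with the highest level, and for *Adra2b*, the gene whose reads differed most in ratio between genotypes (30 against 4 reads in all). Such windows were present for 5 of the 7 genes. The *Adrb1* window lies on chromosome 19 (chr19:56721867-56722116, plus strand) and the *Adra2b* window on chromosome 2 (chr2:127362929-127363178, plus strand). Both are written 5′ to 3′ with matches to the motifs GGGCGG (GC box) and TGACG (the core of the cAMP response element) in capitals, searched on both strands.
*Adrb1*: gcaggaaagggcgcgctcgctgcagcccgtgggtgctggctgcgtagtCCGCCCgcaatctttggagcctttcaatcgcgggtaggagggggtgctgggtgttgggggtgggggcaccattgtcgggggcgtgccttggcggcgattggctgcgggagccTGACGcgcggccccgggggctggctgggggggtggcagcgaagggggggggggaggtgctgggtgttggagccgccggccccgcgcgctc
*Adra2b*: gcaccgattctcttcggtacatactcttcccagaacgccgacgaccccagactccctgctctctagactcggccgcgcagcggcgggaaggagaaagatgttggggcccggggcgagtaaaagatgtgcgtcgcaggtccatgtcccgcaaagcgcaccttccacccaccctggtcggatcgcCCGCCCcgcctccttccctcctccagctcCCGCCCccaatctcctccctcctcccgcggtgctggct
In the *Adrb1* window a GC box began at position -202 (on the minus strand, read here as CCGCCC) and TGACG at -90, counted from -1 for the base before the start. The *Adra2b* window held 2 GC boxes on the minus strand, at -67 and -38, and no TGACG. Over all 32851 promoter windows of the same length, 32.7% held GGGCGG and 17.8% held TGACG. The full cAMP response element TGACGTCA, which contains TGACG, was in neither window (1.55% of all windows). The glucocorticoid response element was searched as AGAACA and TGTTCT with 3 bases between them (0.00913% of all windows) and as AGAACA alone (16.1%). Neither had a match in the 6 windows of the 5 receptor genes, which says only that these letters are not there. A match is a description of the sequence and not a binding site.

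*Adrb1* (ENSMUSG00000035283, chromosome 19 of GRCm38 from 56722372 to 56724862, plus strand) was the most abundant of the genes. The β1 receptor is best known for raising the rate and force of the heartbeat. *Adrb1* was expressed at 55.6, 56.7 and 35.2 CPM in GR+/+ replicates 1, 2 and 3 and at 48.8, 50.1 and 55.5 CPM in GRdim/dim replicates 1, 2 and 3. GR+/+ replicate 3 was the low library, and the other two GR+/+ libraries lay just above the highest GRdim/dim library. GR+/+ lungs had a mean of 49.2 ± 12.1 CPM and GRdim/dim lungs one of 51.5 ± 3.58 CPM (SD, n = 3 each). The difference between genotypes on the log2 scale was 0.07 ± 0.21 (SE, edgeR adjusted *p* = 0.959), with a 95% interval from -0.39 to 0.53, or 0.763-fold to 1.44-fold. Without GR+/+ replicate 3 the log2 fold change was -0.12 (edgeR adjusted *p* = 0.935), with its sign turned. The deposited gene model of *Adrb1* begins at the start codon, so reads from its 5′ untranslated region were outside it.

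**Figure D1:**
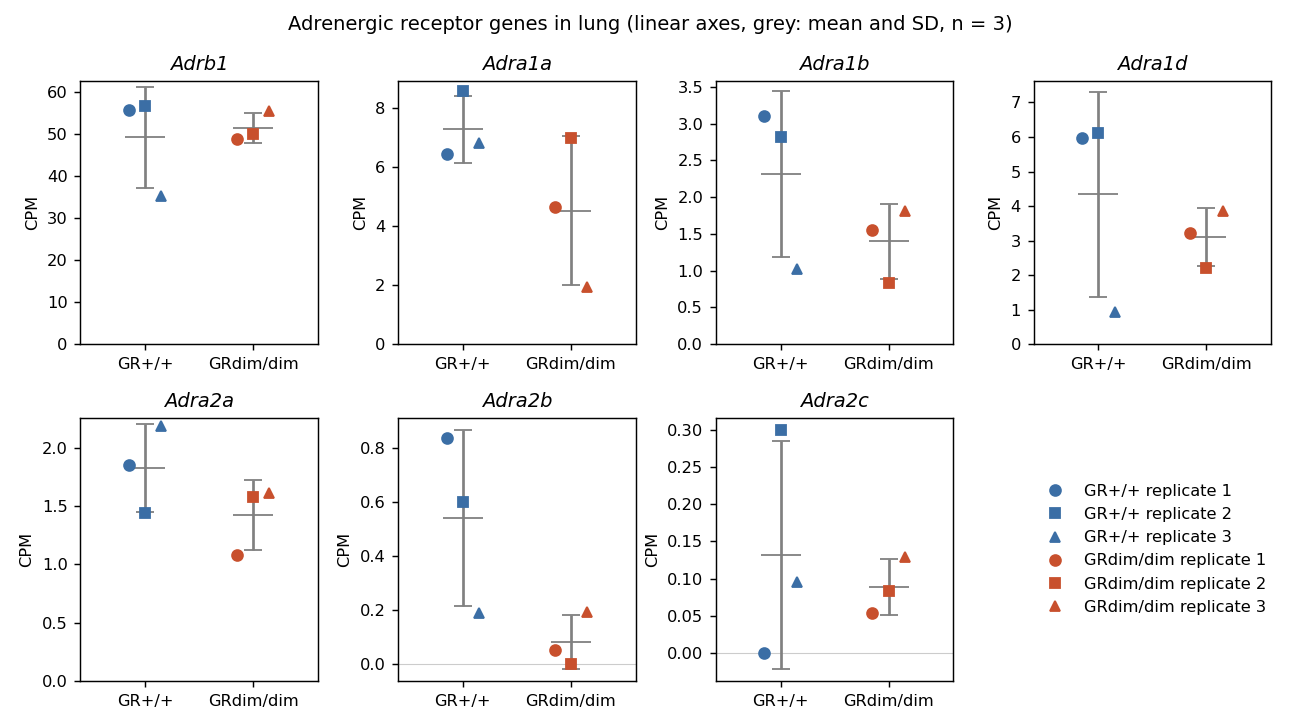
Expression of the 7 adrenergic receptor genes in CPM on the vertical axes (linear, a separate scale for each gene) for GR+/+ and GRdim/dim lungs on the horizontal axes. Points are single libraries, with the replicate given by the shape, and grey bars are the mean and SD (n = 3). The genotypes overlap in every panel, and GR+/+ replicate 3 is the lowest GR+/+ library for *Adrb1*, *Adra1b*, *Adra1d* and *Adra2b*.

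The α1 receptor genes were expressed at much lower levels. *Adra1a* (ENSMUSG00000045875, chromosome 14 from 66635251 to 66771168, plus strand) encodes the α1A receptor, a mediator of smooth muscle contraction. It had 6.45, 8.57 and 6.80 CPM in GR+/+ libraries and 4.64, 6.98 and 1.94 CPM in GRdim/dim libraries. The GRdim/dim libraries were spread widely, with replicate 2 among the GR+/+ libraries and replicate 3 far below all others. The GRdim/dim minus GR+/+ difference on the log2 scale was -0.67 ± 0.41 (SE, 95% interval -1.58 to 0.23, edgeR adjusted *p* = 0.667). The value depended on single GRdim/dim libraries, with -0.32 when replicate 3 was left out and -1.13 when replicate 2 was (edgeR adjusted *p* = 0.740 and 0.484, the unadjusted value being under 0.05 for the second).

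*Adra1b* (ENSMUSG00000050541, chromosome 11 from 43774606 to 43901210, minus strand), the gene of the α1B receptor, had 3.11, 2.82 and 1.02 CPM in GR+/+ and 1.56, 0.831 and 1.81 CPM in GRdim/dim libraries. Behind these levels were 20 to 52 reads per library. GR+/+ replicates 1 and 2 lay above all GRdim/dim libraries, and GR+/+ replicate 3 lay among them. On the log2 scale the genotypes differed by -0.72 ± 0.51 (SE, 95% interval -1.85 to 0.41, edgeR adjusted *p* = 0.729). This value was -1.09 without GR+/+ replicate 3 (edgeR adjusted *p* = 0.586, unadjusted under 0.05). Without GR+/+ replicate 1 or GRdim/dim replicate 2 it was -0.43 each (edgeR adjusted *p* = 0.995 and 0.877).

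*Adra1d* (ENSMUSG00000027335, chromosome 2 from 131545850 to 131562283, minus strand) encodes the α1D receptor, which contracts large arteries. It had 5.98, 6.12 and 0.921 CPM in GR+/+ and 3.23, 2.20 and 3.87 CPM in GRdim/dim libraries. All GRdim/dim libraries lay between GR+/+ replicate 3 and the other GR+/+ libraries, and 29 reads were counted in that library against 100 and 102 in the other two. Between genotypes the log2 fold change came to -0.47 ± 0.59 (SE, 95% interval -1.77 to 0.84, edgeR adjusted *p* = 0.874). Without GR+/+ replicate 3 it was -0.97 (edgeR adjusted *p* = 0.519, the unadjusted value being under 0.05), and without GR+/+ replicate 2 or 1 it was -0.12 or -0.15 (edgeR adjusted *p* = 0.989 and 0.999). An antisense gene, *Gm14285*, overlaps 147 bases of the *Adra1d* exons and had 4 reads over all 6 libraries.

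Of the α2 receptor genes, *Adra2a* was tested and the other two had too few reads. *Adra2a* (ENSMUSG00000033717, chromosome 19 from 54045182 to 54048982, plus strand) encodes the α2A receptor, which inhibits norepinephrine release from sympathetic nerve endings and also acts on platelets. It had 1.85, 1.44 and 2.19 CPM in GR+/+ and 1.08, 1.58 and 1.61 CPM in GRdim/dim libraries, from 20 to 69 reads each. The genotypes overlapped, with GRdim/dim replicate 1 below all other libraries. The log2 fold change was -0.37 ± 0.39 (SE, 95% interval -1.23 to 0.50, edgeR adjusted *p* = 0.839). Without GR+/+ replicate 3 it was -0.21 and without GRdim/dim replicate 1 it was -0.20 (edgeR adjusted *p* = 0.965 and 0.914).

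*Adra2b* (ENSMUSG00000058620, chromosome 2 from 127363208 to 127367221, plus strand) encodes the α2B receptor, known for vasoconstriction. It was covered by 14, 10 and 6 reads in GR+/+ libraries and by 1, 0 and 3 reads in GRdim/dim libraries, or 30 against 4 reads in all. These are 0.837, 0.6 and 0.191 CPM in GR+/+ and 0.0539, 0 and 0.194 CPM in GRdim/dim libraries, so that GRdim/dim replicate 3 reached the level of GR+/+ replicate 3, the deepest library. The 0 reads in GRdim/dim replicate 2 allow a level of up to 0.125 CPM (3 reads, counting error only). With all genes kept regardless of their counts, *Adra2b* had a log2 fold change of -2.73 ± 1.11 (SE, edgeR adjusted *p* = 0.313, the unadjusted value being under 0.05), and 1.66% of the genes were DEGs in that fit. *Adra2b* passed the filter when GR+/+ replicate 3 or a single GRdim/dim library was left out. Its log2 fold change was then -4.14 to -2.06 (edgeR adjusted *p* = 0.319 to 0.603), with -3.20 without GR+/+ replicate 3. It did not pass without GR+/+ replicate 1 or 2, the libraries with the most reads. The range therefore lacks those runs and rests on the group in which the gene was higher. An exact two-sided permutation test of the mean *Adra2b* log2 CPM gave *p* = 0.2, where 0.1 is the smallest value that 3 against 3 libraries allow. *Adra2c* (ENSMUSG00000045318, chromosome 5 from 35278319 to 35281763, plus strand), the gene of the α2C receptor, had 0, 5 and 3 reads in GR+/+ and 1, 2 and 2 reads in GRdim/dim libraries. A difference in *Adra2c* was not detectable at this depth.

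**Figure D2:**
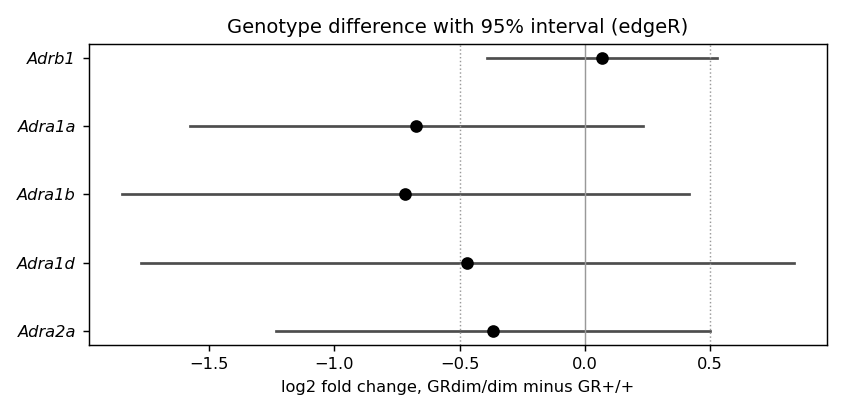
Log2 fold change between genotypes (GRdim/dim minus GR+/+, horizontal axis) from edgeR for the 5 tested receptor genes on the vertical axis. Points are estimates, lines their 95% intervals, the solid line marks 0 and dotted lines mark 0.5 in either direction. All 5 intervals include 0, from -0.39 to 0.53 for *Adrb1* to -1.85 to 0.41 for *Adra1b*.

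Per length of the deposited gene model, *Adrb1* had the highest level in all 6 libraries, with 20.2 ± 3.24 CPM per kb (SD, n = 6). *Adra1d* followed with 1.96 ± 1.08 CPM per kb and lay above *Adra1a* (0.676 ± 0.265 CPM per kb) in 5 of the 6 libraries. *Adra1b* (0.549 ± 0.275 CPM per kb) and *Adra2a* (0.428 ± 0.0991 CPM per kb) came next. The order of neighbours varied between libraries here: *Adra1a* lay above *Adra1b*, and *Adra1b* above *Adra2a*, in 4 of 6. *Adra1a* lay above *Adra2a* in every library except GRdim/dim replicate 3 (0.222 against 0.425 CPM per kb). *Adra2a* lay above *Adra2b* (0.0778 ± 0.0827 CPM per kb) in all 6, and *Adra2b* above *Adra2c* (0.0320 ± 0.0298 CPM per kb) in 4. These values depend on how much untranslated sequence a gene model holds, and the coding part was 1686 of 1899 bases in *Adra1d* but 1412 of 8728 bases in *Adra1a*. Windows of 31 bases that also occur in transcripts of other genes made up 0 to 2.03% of the transcripts of 6 receptor genes and 6.31% for *Adra1d*, and in no case was another of these receptor genes the main gene sharing them.

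The α genes summed to 18.2, 19.8 and 11.2 CPM in GR+/+ and to 10.6, 11.7 and 9.56 CPM in GRdim/dim libraries, with GR+/+ replicate 3 among the GRdim/dim libraries. *Adrb1* over this sum was 3.05, 2.85 and 3.14 in GR+/+ and 4.59, 4.29 and 5.81 in GRdim/dim libraries. This ratio did not overlap between genotypes. It was formed after the values of its genes had been seen and is given as a description without a test.

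Receptor genes were set against the markers of 13 cell types, in 65 relations of which none passed the adjustment for multiple tests. *Adrb1* and *Adra1d* had their lowest level in GR+/+ replicate 3, the library with the lowest pericyte and smooth muscle markers. Over the 6 libraries, *Adrb1* had a Pearson *r* of 0.95 with the mean log2 CPM of 6 pericyte markers (exact permutation *p* = 0.0167, adjusted 0.271) and a Spearman rho of 0.71 (exact permutation *p* = 0.136, adjusted 0.631). *Adra1d* had a Pearson *r* of 0.95 with them (exact permutation *p* = 0.0111, adjusted 0.241) and a Spearman rho of 0.77 (exact permutation *p* = 0.103, adjusted 0.609). The relations given here were picked after their values had been seen. When the 2 libraries farthest from the median of the markers were left out, *r* was 0.89 for *Adrb1* and 0.49 for *Adra1d*, so that the second relation rested on those libraries (GR+/+ replicate 3 and GRdim/dim replicate 2). Without GR+/+ replicate 3 alone, *r* was 0.79 and 0.83. With smooth muscle markers *Adrb1* had a Pearson *r* of 0.96 (exact permutation *p* = 0.0111, adjusted 0.241) and a Spearman rho of 0.77 (exact permutation *p* = 0.103, adjusted 0.609). Its *r* was 0.89 without the 2 libraries farthest from the median and 0.73 without GR+/+ replicate 3. *Adra1d* had a Pearson *r* of 0.85 with smooth muscle markers (exact permutation *p* = 0.0431, adjusted 0.4) and a Spearman rho of 0.71 (exact permutation *p* = 0.136, adjusted 0.631), and *r* was 0.74 without the 2 farthest libraries and 0.36 without GR+/+ replicate 3. Heart muscle markers gave a Pearson *r* of 0.89 with *Adrb1* (exact permutation *p* = 0.0278, adjusted 0.301; Spearman rho 0.71, exact permutation *p* = 0.136, adjusted 0.631) and of 0.87 with *Adra1d* (exact permutation *p* = 0.0278, adjusted 0.301; Spearman rho 0.83, exact permutation *p* = 0.0583, adjusted 0.609). Both rested on 2 GR+/+ libraries, with *r* = 0.45 and 0.37 without replicates 2 and 3, and 0.61 and 0.58 without replicate 3 alone. The smallest Pearson *p* of all 65 was that of *Adra1b* with adipocyte markers, with a Pearson *r* of 0.88 (exact permutation *p* = 0.00556, adjusted 0.241) and a Spearman rho of 0.83 (exact permutation *p* = 0.0583, adjusted 0.609). Its *r* was 0.69 without the 2 farthest libraries and 0.91 without GR+/+ replicate 3. For *Adra1a*, both correlations with pericyte and smooth muscle markers were between -0.49 and -0.31 (exact permutation *p* = 0.297 to 0.564).

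**Figure D3:**
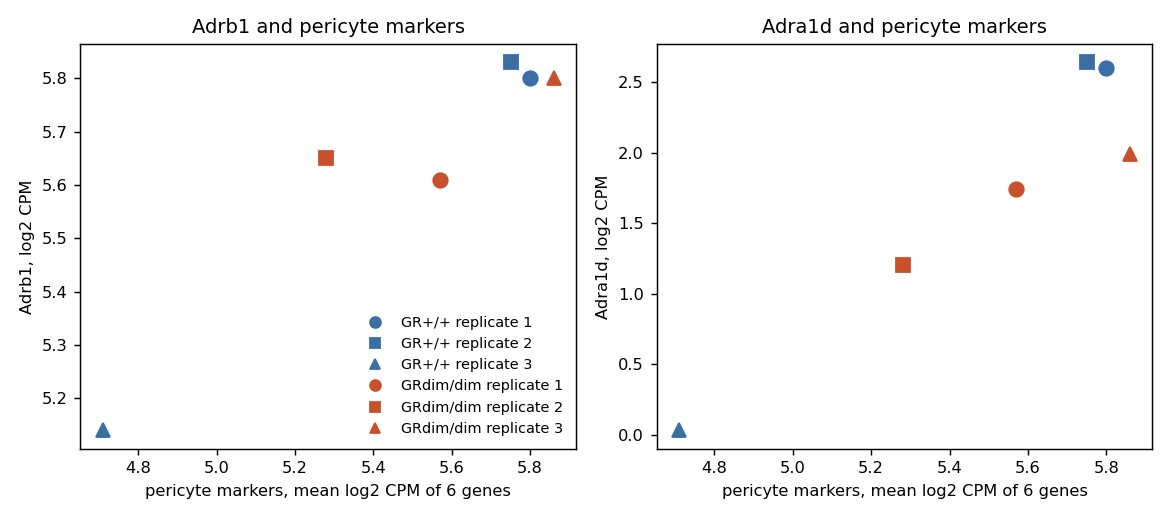
Log2 CPM of *Adrb1* (left) and *Adra1d* (right) on the vertical axes against the mean log2 CPM of 6 pericyte markers on the horizontal axes, which do not start at 0. Each point is 1 library, with color for the genotype and shape for the replicate. GR+/+ replicate 3 lies at the lower left in both panels, with 4.71 for the markers, 5.14 for *Adrb1* and 0.03 for *Adra1d*.

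Among 10687 genes with a mean of at least 10 CPM, the genes most like each receptor gene over the 6 libraries were listed by Pearson's *r* of log2 CPM. They were *Clk2*, *Fam160b2* and *9430015G10Rik* for *Adrb1* (*r* = 0.990 each), *Coro2a*, *Plod2* and *Dtna* for *Adra1a* (0.991 to 0.994) and *Megf6*, *Ccdc71l* and *Plin4* for *Adra1b* (0.982 to 0.987). For *Adra1d* they were *Sema3f*, *Pdgfrb* and *Slc25a45* (0.985 to 0.996). Of these, *Pdgfrb* encodes a growth factor receptor of pericytes. It was already among the pericyte markers above, so it adds no separate relation. For *Adra2a* they were *Axin1*, *Osbpl3* and *Muc1* (0.970 to 0.988). With 6 libraries such values are common, and 13 to 57 genes exceeded 0.95 for a single receptor gene. Without GR+/+ replicate 3, *r* of the genes named here was 0.910 to 0.995. Between receptor genes, *r* was highest for *Adrb1* with *Adra1d* (0.94) and for *Adra1b* with *Adra1d* (0.87), and *Adra1a* had 0.00 with *Adra1b* and -0.08 with *Adra1d*. These values were 0.82, 0.99, 0.11 and 0.18 without GR+/+ replicate 3. For *Adrb1* with *Adra2a*, *r* was -0.46 with that library and 0.64 without it, and for *Adra1d* with *Adra2a* it was -0.43 and 0.30.

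Markers of the other cell types that a lung sample can hold were compared between genotypes. The marker lists were chosen with earlier results of these data known, so their shares are a description and not a test. Of 80 marker genes, 73 were tested, and 0 were DEGs with edgeR, 12 had an unadjusted *p*-value under 0.05 (16.4%, against 9.6% of all genes tested), 11 being higher and 1 lower in GRdim/dim lungs. With DESeq2, 3 were DEGs (4.11%, against 1.71% of all genes), namely *Cldn5*, *Retnlg* and *Pf4*, of endothelium, neutrophils and platelets. All 3 were higher in GRdim/dim lungs. *Cldn5* (edgeR log2 fold change 0.94) went against the rest of the endothelial markers. *Pecam1*, *Cdh5*, *Kdr*, *Tek* and *Erg* had log2 fold changes below 0, from -0.50 to -0.12. Summed levels overlapped between genotypes for smooth muscle, pericytes, heart muscle, alveolar type 1 and type 2 cells, endothelium (2037 to 2978 against 2481 to 2644 CPM), fibroblasts (1003 to 2363 against 1579 to 2112 CPM), adipocytes, neurons and neutrophils (239 to 466 against 340 to 1078 CPM). Alveolar type 2 markers summed to 15420 to 22540 CPM in GR+/+ and 15270 to 23710 CPM in GRdim/dim libraries. B cell markers were lower in every GR+/+ library (27.8 to 62.7 CPM) than in the GRdim/dim libraries (64.2 to 95.7 CPM), and so were platelet markers (16.3 to 22.4 against 25.8 to 36.6 CPM). T cell markers overlapped (11.6 to 25.4 against 24.4 to 37.4 CPM). Among 6 platelet markers, *Gp1bb* was at 0 in all libraries, and *Pf4* had a mean of 5.38 CPM in GR+/+ and 13.4 CPM in GRdim/dim lungs (edgeR adjusted *p* = 0.244). *Pf4* was the only platelet marker whose libraries did not overlap between genotypes. *Ppbp*, *Itga2b*, *Treml1* and *Gp9* overlapped, with log2 fold changes of 0.40, 0.39, 0.41 and -0.12, so the platelet sum does not stand for these markers singly. Adipocyte markers summed to 13.6 to 54.9 CPM in GR+/+ and 3.90 to 39.0 CPM in GRdim/dim libraries, and the brown fat gene *Ucp1* had 19.3 CPM in GR+/+ replicate 2 and at most 0.166 CPM in the others. Neuronal markers summed to 26.6 to 53.1 and 25.9 to 66.05 CPM, with *Snap25*, *Syt1* and *Elavl4* under 1 CPM on average. The part of these cell types in the receptor levels was not tested.

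Genes around the receptors were taken from 10 lists, from catecholamine synthesis to cAMP-responsive genes. Of the 68 genes listed, 65 were tested and 0 were DEGs with edgeR, while 5 were with DESeq2 (7.69%, against 1.71% of all genes). The 5 were *Slc22a3*, *Rgs2*, *Crem*, *Pde4b* and *Prkar1b*, all higher in GRdim/dim lungs. An unadjusted *p*-value under 0.05 was found with edgeR for 19 of the 65 genes (29.2%, against 9.6% of all genes tested), 14 higher and 5 lower in GRdim/dim lungs. The lists were chosen with earlier results of these data known, so these shares are a description and not a test of the pathway. The median log2 fold change of the 65 genes was 0.04, with 34 above and 31 below 0. In what follows, a gene with no DEG call is given by its values.

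The supply and removal of catecholamines was represented by few abundant genes. *Th*, which encodes the rate-limiting enzyme of catecholamine synthesis, was at 0 in all libraries, and *Dbh*, which makes norepinephrine, had a mean of 0.0212 CPM in GR+/+ and 0.0138 CPM in GRdim/dim lungs. *Ddc*, the aromatic amino acid decarboxylase gene, had a log2 fold change of -1.13 ± 0.49 (SE, edgeR adjusted *p* = 0.5), and of -0.68 without GR+/+ replicate 2. *Slc18a2*, the vesicular monoamine transporter gene, was at 5.31 ± 0.664 and 5.46 ± 0.721 CPM (SD, n = 3 each).

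*Slc6a2*, the gene of the norepinephrine transporter that lung endothelium uses to clear norepinephrine, was at 89.9 ± 12.3 CPM in GR+/+ and 94.2 ± 15.1 CPM in GRdim/dim lungs (SD, n = 3 each). Its log2 fold change was 0.07 ± 0.18 (SE, edgeR adjusted *p* = 0.951). *Slc22a3*, which encodes an extraneuronal transporter of monoamines, had 2.21, 2.94 and 1.27 CPM in GR+/+ and 9.87, 9.89 and 6.46 CPM in GRdim/dim libraries. Every GRdim/dim library lay above every GR+/+ library. For *Slc22a3* the difference of 2.05 ± 0.37 on the log2 scale (SE) missed the threshold in edgeR (adjusted *p* = 0.0714) and passed it in DESeq2 (adjusted *p* = 2.14e-05). *Slc29a4*, of the same list, had too few reads to be tested. It was at 0.538, 1.62 and 0.508 CPM in GR+/+ and, lower in each, 0.0539, 0.125 and 0.323 CPM in GRdim/dim libraries. The monoamine oxidase genes *Maoa* and *Maob* had log2 fold changes of -0.34 and 0.26 (edgeR adjusted *p* = 0.582 and 0.815).

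**Figure D4:**
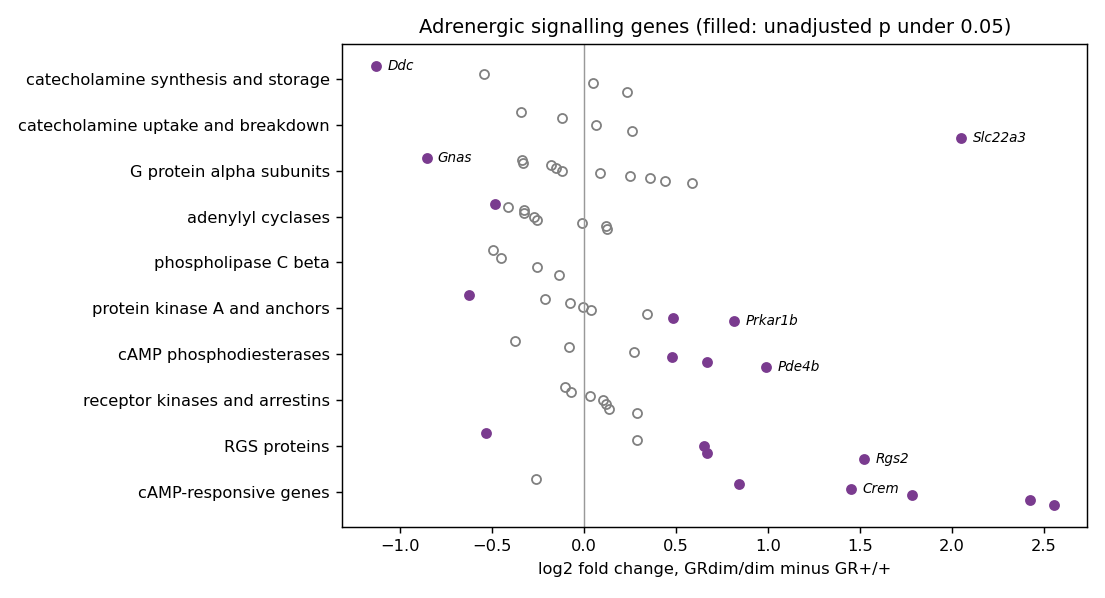
Log2 fold change between genotypes (GRdim/dim minus GR+/+, horizontal axis) from edgeR for the 65 tested genes of 10 signalling lists (vertical axis). Each point is 1 gene, filled where its unadjusted *p*-value was under 0.05, and 7 of the genes are named. *Slc22a3*, *Rgs2* and *Crem* lie to the right at 2.05, 1.52 and 1.45, and *Gnas* and *Ddc* to the left at -0.85 and -1.13.

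Of 11 Gα subunit genes, the 1 with an unadjusted *p*-value under 0.05 was *Gnas*, which encodes Gs, the partner of β receptors. *Gnas* had 107, 102 and 81.8 CPM in GR+/+ and 32.8, 44.1 and 84.2 CPM in GRdim/dim libraries, with GRdim/dim replicate 3 at the level of the controls. Its log2 fold change was -0.85 ± 0.30 (SE, edgeR adjusted *p* = 0.415), and -1.33 without that library (edgeR adjusted *p* = 0.0620). *Gnai2*, a Gi subunit gene and the most abundant of this list, was at 463 ± 89.7 and 594 ± 50.6 CPM (SD, n = 3 each), or 0.36 higher on the log2 scale in GRdim/dim lungs (edgeR adjusted *p* = 0.629).

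Of 9 adenylyl cyclase genes, 2 had log2 fold changes above 0, and *Adcy2* had an unadjusted *p*-value under 0.05 with a log2 fold change of -0.48 (edgeR adjusted *p* = 0.491). *Adcy4*, the most abundant, was at 144 ± 41.8 and 115 ± 16.6 CPM (SD, n = 3 each). All 4 phospholipase Cβ genes, the effectors of Gq, had log2 fold changes below 0, from -0.49 (*Plcb4*) to -0.13 (*Plcb3*), and 0 of them had an unadjusted *p*-value under 0.05.

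Among 8 genes of protein kinase A and its anchors, *Prkar1b*, a regulatory subunit gene, had 26.5, 23.7 and 22.9 CPM in GR+/+ and 41.1, 45.6 and 42.2 CPM in GRdim/dim libraries. The libraries of each genotype lay close together and the genotypes did not overlap. On the log2 scale they differed by 0.82 ± 0.17 (SE), with adjusted *p* = 0.131 in edgeR and 0.00530 in DESeq2. The anchoring protein genes *Akap12* and *Akap5* had log2 fold changes of 0.48 and -0.63 (edgeR adjusted *p* = 0.447 and 0.459), and that of *Akap5* was -0.40 without GR+/+ replicate 3. *Prkar1a*, the most abundant, was at 397 ± 27.4 and 504 ± 35.1 CPM (SD, n = 3 each).

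Phosphodiesterases end the cAMP signal. *Pde4b* had 114, 126 and 124 CPM in GR+/+ and 201, 323 and 199 CPM in GRdim/dim libraries. All GRdim/dim libraries were above the controls, with replicate 2 the highest. This was a log2 difference of 0.99 ± 0.21 (SE), with adjusted *p* = 0.137 in edgeR and 0.00467 in DESeq2. *Pde4c* and *Pde4d* had log2 fold changes of 0.67 and 0.48 (edgeR adjusted *p* = 0.461 and 0.520), which were 0.40 and 0.30 without GRdim/dim replicate 2. Those of *Pde3a*, *Pde3b* and *Pde4a* were -0.08, 0.27 and -0.37.

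Receptor kinases and arrestins, which desensitize agonist-bound receptors, showed small differences. The 7 genes had log2 fold changes between -0.10 (*Grk5*) and 0.29 (*Arrb2*), and 0 had an unadjusted *p*-value under 0.05. *Arrb1*, the most abundant, was at 248 ± 37.7 and 237 ± 35.8 CPM (SD, n = 3 each).

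RGS proteins speed the return of Gα subunits to their inactive state, and RGS2 acts on Gq. *Rgs2* had 91.2, 88.1 and 78.8 CPM in GR+/+ and 207, 355 and 179 CPM in GRdim/dim libraries. The controls were tightly grouped, and every GRdim/dim library lay above them. The log2 difference of *Rgs2* was 1.52 ± 0.25 (SE), with adjusted *p* = 0.0546 in edgeR and 6.83e-06 in DESeq2. *Rgs4* and *Rgs5*, the second of which is known from pericytes, had log2 fold changes of 0.65 and 0.67, and *Rgs3* had one of -0.53 (edgeR adjusted *p* = 0.426, 0.425 and 0.471). Without GRdim/dim replicate 1, *Rgs3* had a value of -0.32.

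Mean levels of 5 of the 6 cAMP-responsive genes were higher in GRdim/dim lungs, at edgeR *p* below 0.05 before adjustment. Over all genes tested, 9.6% reached such a *p* in either direction. This list was picked with earlier results known, so the count is a description and not a test. *Crem*, which encodes a transcription factor of the cAMP response, had 22, 15.8 and 21.3 CPM in GR+/+ and 37.3, 66.9 and 57.5 CPM in GRdim/dim libraries. The genotypes did not overlap. The log2 difference of *Crem* was 1.45 ± 0.25 (SE), with adjusted *p* = 0.0594 in edgeR and 2.39e-05 in DESeq2. *Crem* was a DEG in edgeR when GRdim/dim replicate 1 was left out (log2 fold change 1.66, adjusted *p* = 0.0282). *Nr4a1*, *Nr4a2* and *Nr4a3*, genes of nuclear receptors that many stimuli induce, had log2 fold changes of 1.78, 2.55 and 2.42 (edgeR adjusted *p* = 0.374, 0.494 and 0.386). GRdim/dim replicate 2 was the highest library for each of them, with 992, 186 and 65.9 CPM. Without it, the log2 fold changes of *Nr4a1*, *Nr4a2* and *Nr4a3* were 0.999, 1.20 and 1.89 (edgeR adjusted *p* = 0.550, 0.560 and 0.506). The genotypes overlapped for *Nr4a2* and *Nr4a3*, where GRdim/dim replicate 1 lay among the GR+/+ libraries (15.7 and 7.22 CPM). *Nr4a3* was a DEG in edgeR only when that library, GRdim/dim replicate 1, was left out (log2 fold change 2.93, adjusted *p* = 0.0370). *Sik1* had a log2 fold change of 0.84 (edgeR adjusted *p* = 0.439), or 0.53 without GRdim/dim replicate 2, and *Ppargc1a* one of -0.26 with no unadjusted *p*-value under 0.05.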

How the data were processed

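Poly(A)-captured RNA from the lungs of 3 GR+/+ and 3 GRdim/dim mice was sequenced by Novogene. As deposited, the table holds the authors' unnormalized counts of reads for each gene, on mouse build mm10 (GRCm38). The aligner, the counting tool and the use of strand are not given in the sources used here. Groups and replicate numbers came from the sample titles. The receptor genes, gene lists and the rule for named genes (all receptor genes, list genes with an unadjusted *p*-value under 0.05, and the most abundant gene of each list) were chosen with earlier results of these data known.

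Counts were tested in R 4.3.3 with edgeR 4.0.16 (filterByExpr, TMM scaling, robust glmQLFit, glmQLFTest) and Benjamini-Hochberg adjustment over 16568 genes. Standard errors were derived from the fold change and its F statistic. DESeq2 1.42.0 was run as an alternative. CPM values are TMM-scaled, and log2 CPM used a prior count of 2. The procedure was tested on simulated data. Replicates differed by more than sampling noise (chi-square of 21 to 70.6 per degree of freedom). Sexes were given per genotype and not per mouse, so a covariate for sex was taken from sex-linked genes in an alternative.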

Additional observations from a re-analysis of the deposited data

How the results depend on the processing

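None of the receptor genes was a DEG under any alternative run, which were DESeq2, RLE scaling, a filter of at least 10 counts per library or none, the replicate number as a block, sex-linked expression as a covariate, calls by adjusted *p* alone, and the removal of single libraries. The number of DEGs over all genes was 28 and changed most without a filter on low counts (522) and with DESeq2 (272), and it was 4 to 22 with a library left out (12, 4 and 17 without GR+/+ replicate 1, 2 and 3, and 14 without GRdim/dim replicate 3). Without a filter, 7 of the signalling genes were DEGs (*Slc22a3*, *Gnas*, *Prkar1b*, *Pde4b*, *Rgs2*, *Crem* and *Sik1*), with DESeq2 there were 5, and with a library left out 0 to 2 (2 without GRdim/dim replicate 1). The cause was not tested. The replicate block gave 34 DEGs and 0 receptor genes. The sample titles state no pairing of same-numbered libraries. Correlations of their deviations were 0.218, 0.036 and -0.055. GR+/+ replicates 1 and 2 correlated best with their own number, and GR+/+ replicate 3 did not. The sign of a log2 fold change turned only for *Adrb1*, to -0.12 without GR+/+ replicate 3. With each library left out, the tested receptor genes ranged from -0.12 to 0.19 (*Adrb1*), -1.13 to -0.32 (*Adra1a*), -1.09 to -0.43 (*Adra1b*), -0.97 to -0.12 (*Adra1d*) and -0.50 to -0.20 (*Adra2a*). With sex-linked expression as a covariate, they were 0.01 (*Adrb1*), -0.52 (*Adra1a*), -1.05 (*Adra1b*), -0.72 (*Adra1d*) and -0.33 (*Adra2a*). Depth limits *Adra2b* and *Adra2c*, which had at most 14 reads in a library.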
